A study of Mus musculus with 12 samples.

Results

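Collagens are the main structural proteins of the extracellular matrix, and 44 genes that encode collagen chains were measured in 12 prostate tumours of mice. The genes were chosen by symbol alone, as every array probe set with exactly 1 gene symbol of the form Col, a number, a and a number. There were 46 such probe sets, and a gene with more than 1 was represented by its brightest, as averaged over all 12 tumours. The 44 genes were part of 19937 genes with a symbol of their own and of 28192 probe sets tested. By the structure of the protein 11 chains were fibrillar, 6 belonged to basement membrane collagen IV, 9 were fibril-associated collagens with interrupted triple helices (FACIT) and 18 were of other kinds.

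The tumours came from TRAMP-C2Re3, a mouse prostate carcinoma cell line, of which 50000 cells were placed in the prostate of each host and left for 60 days. Hosts were p62 KO mice (6 tumours, 1 per mouse) or wild-type (WT) mice (6 tumours, 1 per mouse), all on the C57BL6 background, and the labels give no age and no Cre driver or cell type for the knockout. p62, encoded by Sqstm1, is an autophagy receptor and signalling scaffold. The comparison asks whether its absence from the host changes the RNA of the tumour. Every tumour held the same injected cells, which are not labelled as p62 KO, and since both these and the host cells are of mouse origin, collagen RNA of host stroma and of injected cells cannot be told apart on the arrays. In whole-tumour RNA, fewer cells of a type and less RNA per cell cannot be told apart either.

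A collagen molecule is a triple helix of 3 chains, made of repeats of glycine and 2 further residues, in which proline is hydroxylated in the endoplasmic reticulum. Some collagens are built of 3 copies of 1 chain and others need chains of different genes. After secretion, fibrillar chains are trimmed at their ends, assembled into fibrils and cross-linked by lysyl oxidases, while collagen IV forms the network of basement membranes and FACIT chains decorate the surface of fibrils. In tumours, fibroblasts are the best known source of fibrillar collagen, and endothelial and epithelial cells of collagen IV.

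The values are log2 intensities, and 1 unit is a doubling. Sqstm1 had lowest, median and highest levels of 8.17, 8.76 and 9.22 in p62 KO hosts, against 8.55, 8.91 and 9.16 in WT hosts, and the difference of -0.16 (SE 0.17) does not check the genotypes because the injected cells carry the gene. Of 10 fibroblast markers 10 had means above the lower quartile of the arrays (median 4.95), as had 9 of 10 epithelial markers (Krt8, a keratin of glandular epithelium, averaged 8.11), whereas the epithelial marker Epcam and 7 of 7 measured genes of prostate gland secretion lay below it. Collagens can be read only against this mixture. Interquartile ranges of the log2 values were narrow on 4 arrays, at 2.26 and 2.15 in KO hosts 2 and 3 and at 2.59 and 2.47 in WT hosts 2 and 5, and the other 8 (called wider arrays) reached 2.70 to 2.95. The lower quartile was 5.27 and 5.36 in KO hosts 2 and 3, and 4.85 to 5.14 on the other arrays, so dim probe sets read high in these tumours. Results for the collagen chains are therefore also given without these tumours.

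Across the 44 collagen chains, tumours of p62 KO and WT hosts were not told apart. No chain passed an adjusted p under 0.05 (limma, adjusted p of 0.9935 for Col9a1, which had the smallest unadjusted p, 0.0721), and 0 chains had an unadjusted p under 0.05 in either direction. Among all tested probe sets 0.00355% passed the adjusted threshold, and at the unadjusted one 2.39% did, 1.28% higher and 1.11% lower, so 0 of 44 is close to that background. In 0 of the 44 genes did the 2 groups of tumours lie apart without overlap, which held for 0.0709% (higher) and 0.0745% (lower) of all tested probe sets.

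The data also set a limit on the differences. The 95% interval of p62 KO minus WT lay within 0.5 on the log2 scale either way, or 1.41-fold, for 43 of the 44 chains. The same held for 73.5% of all tested probe sets. The exception was Col9a1, with an interval of -0.03 to 0.68. A larger change of the main fibrillar or basement membrane chains in whole tumours therefore lies outside these intervals, which rest on 6 tumours per group.

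The differences leaned to the positive side, with 33 of 44 above 0 (75%, against 57.2% of all tested probe sets) and a median of 0.07, against 0.02 over all tested probe sets. This lean was not kept without KO hosts 2 and 3. Without these tumours 18 of 44 chains were above 0 (40.9%, against 45.5% of all probe sets) and the median was -0.04, against -0.02 over all. With quantile normalization 38 were above 0 (86.4%, against 52.3%), and with arrays weighted by their quality 19 (43.2%). The direction of the collagen chains as a group is thus not settled by these tumours.

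**Figure D1:**
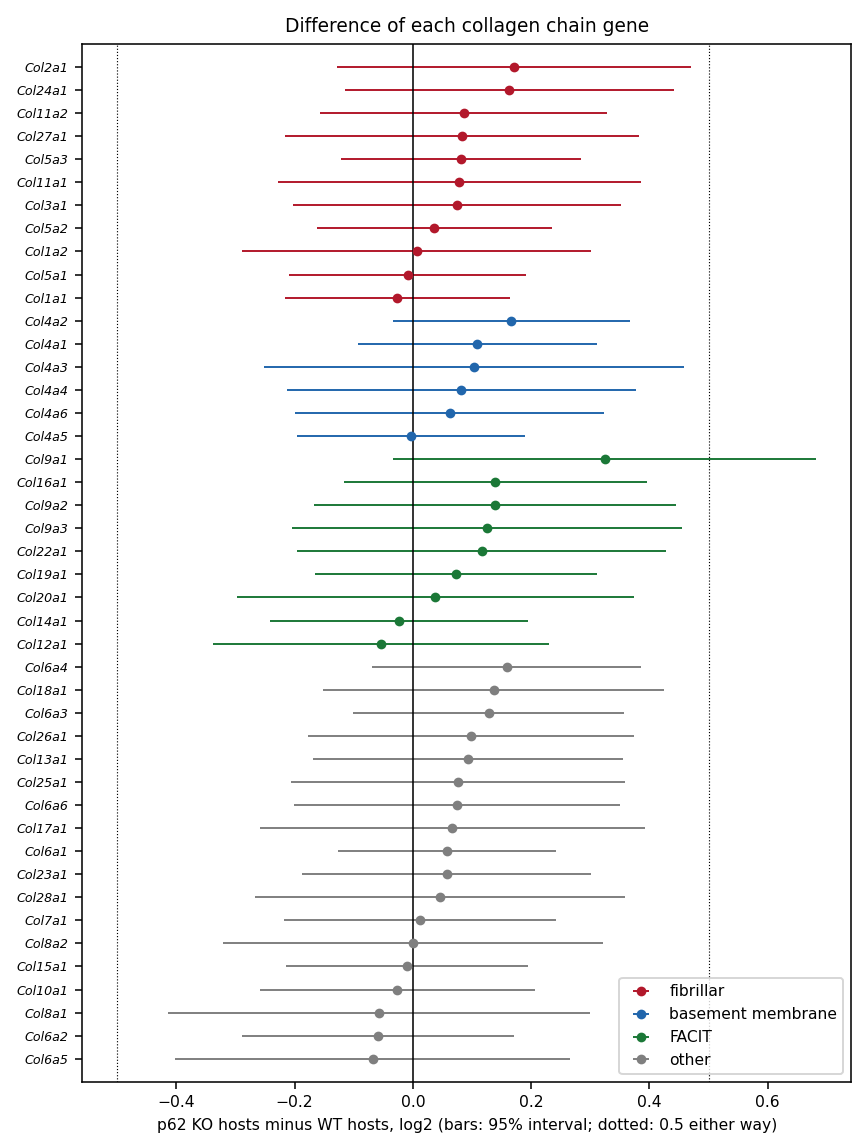
Difference between p62 KO and WT hosts for each of the 44 collagen chain genes on the log2 scale, with 95% intervals from limma as bars, sorted within the 4 structural groups given by colour. All intervals cross 0, and only that of Col9a1 passes the dotted line at 0.5.

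Fibrillar chains form the ropes of connective tissue. Col1a1 encodes the main chain of type I collagen, and Col1a2 its partner. Col1a1 had lowest, median and highest log2 levels of 8.87, 9.03 and 9.35 in p62 KO hosts, against 9.01, 9.07 and 9.19 in WT hosts. The WT tumours lay inside the range of the KO tumours, and the difference was -0.03 (SE 0.09). Col1a2 ran at 9.13, 9.72 and 10.16 in p62 KO hosts, against 9.56, 9.67 and 9.85 in WT hosts. Its lowest tumour was that of KO host 3 and its highest that of KO host 4, so the KO group spanned all WT tumours, with a difference of 0.01 (SE 0.14).

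Col3a1 encodes collagen III, a homotrimer that shares fibrils with collagen I. Its levels were 8.78, 9.16 and 9.59 in p62 KO hosts, against 8.93, 9.07 and 9.24 in WT hosts, a difference of 0.07 (SE 0.13). The tumour of KO host 1 was the highest of all and that of KO host 3 the lowest. Col5a1 and Col5a2 encode chains of collagen V, which sets the diameter of type I fibrils. Col5a2 ran at 8.16, 8.42 and 8.58 in p62 KO hosts, against 8.27, 8.35 and 8.59 in WT hosts (difference 0.04, SE 0.09), with KO host 3 below every WT tumour. Col5a1 ran at 7.15, 7.31 and 7.65 in p62 KO hosts, against 7.28, 7.32 and 7.54 in WT hosts (difference -0.01, SE 0.09), with KO host 3 highest and KO host 5 lowest.

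The remaining fibrillar chains were those of collagens II, V, XI, XXIV and XXVII. Col2a1, the chain of cartilage collagen, had the largest positive difference of the group, 0.17 (SE 0.14), at 6.46, 6.77 and 7.29 in p62 KO hosts, against 6.33, 6.67 and 6.82 in WT hosts. Without KO hosts 2 and 3 it differed by 0.0047. Col11a1, a collagen XI chain of cartilage that is also found in tumour stroma, ran at 7.70, 8.15 and 8.49 in p62 KO hosts, against 7.79, 8.06 and 8.28 in WT hosts (difference 0.08, SE 0.14). KO hosts 1 and 4 were highest and KO host 6 lowest, so the KO group spanned all WT tumours. Over the 11 fibrillar chains 9 differences were above 0, with a median of 0.08 that became 0.0047 without KO hosts 2 and 3.

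**Figure D2:**
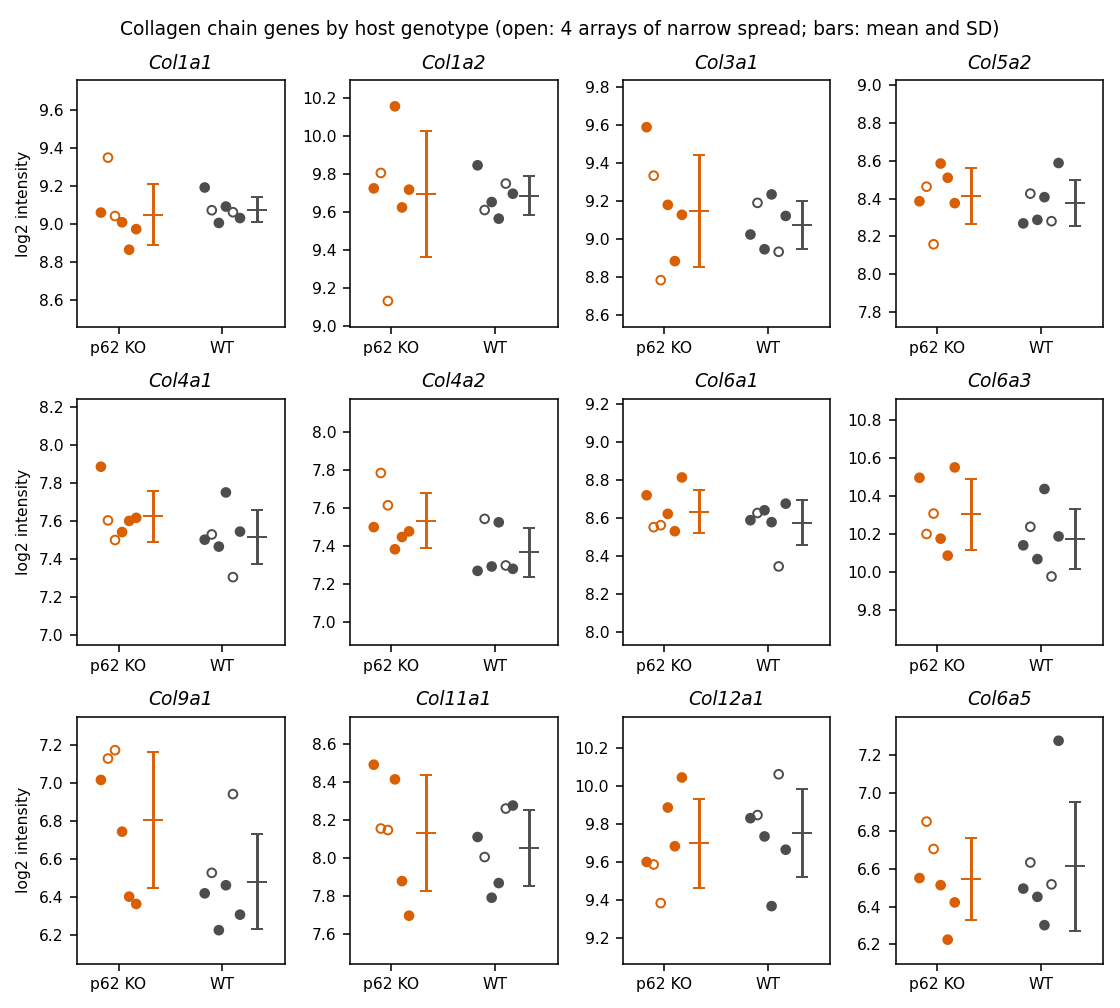
Log2 intensity of 12 collagen chain genes in each tumour, p62 KO hosts left and WT hosts right, with mean and SD as bars and the 4 arrays of narrow spread as open symbols; every panel spans the same 1.3 log2 units. The groups overlap in every panel, and Col1a2 and Col3a1 are more spread among KO tumours.

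Collagen IV is the network of basement membranes. Its ubiquitous form joins Col4a1 and Col4a2 chains, and the other 4 chains belong to specialised membranes such as that of the kidney glomerulus. Col4a1 had levels of 7.50, 7.60 and 7.89 in p62 KO hosts, against 7.30, 7.52 and 7.75 in WT hosts, a difference of 0.11 (SE 0.09). Col4a2 ran at 7.38, 7.49 and 7.79 in p62 KO hosts, against 7.27, 7.30 and 7.54 in WT hosts, with a difference of 0.17 (SE 0.09, interval -0.03 to 0.37). It lay above the 4 lower WT tumours in every KO tumour, and WT hosts 2 and 4 reached into the KO range. Without KO hosts 2 and 3 the differences were 0.15 for Col4a1 and 0.08 for Col4a2, and neither passed (limma, adjusted p of 0.6765 and 0.7573).

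The other collagen IV chains gave no larger difference. Col4a3 and Col4a4 differed by 0.10 and 0.08 (SE 0.17 and 0.14) over all tumours and by -0.16 and -0.11 without KO hosts 2 and 3, the tumours in which both read highest. Col4a5 differed by -0.0031 (SE 0.09) and Col4a6 by 0.06 (SE 0.12). The median of the 6 chains was 0.09, or 0.05 without KO hosts 2 and 3.

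The Col4a1 and Col4a2 genes lie head to head on chromosome 8 and share a promoter region, which makes them the clearest case in which partner chains could be read together. The RefSeq promoter windows (GRCm38.p6, 250 bases before to 50 after each start) are Col4a1 at chr8:11312777-11313076 on the minus strand and Col4a2 at chr8:11312555-11312854 on the plus strand. Each is written along its own strand, and the capitals mark the 78 bases that both windows hold, as reverse complements of each other.
Col4a1: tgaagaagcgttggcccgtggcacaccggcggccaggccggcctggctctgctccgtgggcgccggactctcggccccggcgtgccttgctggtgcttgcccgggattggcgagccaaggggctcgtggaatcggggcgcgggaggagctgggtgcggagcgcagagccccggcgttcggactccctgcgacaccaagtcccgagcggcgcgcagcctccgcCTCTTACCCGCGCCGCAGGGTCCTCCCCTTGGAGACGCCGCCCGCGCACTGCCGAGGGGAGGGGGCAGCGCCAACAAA
Col4a2: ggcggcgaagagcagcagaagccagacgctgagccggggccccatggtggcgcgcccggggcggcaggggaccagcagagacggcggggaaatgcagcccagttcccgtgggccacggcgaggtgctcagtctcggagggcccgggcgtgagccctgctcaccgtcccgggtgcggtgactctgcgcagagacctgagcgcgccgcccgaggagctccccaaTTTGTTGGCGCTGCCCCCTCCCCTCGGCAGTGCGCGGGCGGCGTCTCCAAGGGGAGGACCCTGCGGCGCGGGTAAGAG
The annotated starts are 21 bases apart. Over the 12 tumours the levels of Col4a1 and Col4a2 had a Pearson r of 0.41 and a Spearman rho of 0.38 (permutation p of 0.188 and 0.219, n = 12), with r of -0.10 among p62 KO hosts and 0.61 among WT hosts, and 0.38 without the 2 tumours farthest from the median of Col4a1. Adjusted over 13 pairs the permutation p were 0.305 and 0.359. Over the 8 tumours with wider arrays, r was 0.82 (exact permutation p = 0.00528, or 0.0687 adjusted over 13 pairs), and the rank of Col4a2 among 19936 genes in likeness to Col4a1 was 151, against 1222 over the 12 tumours. The reverse rank, of Col4a1 in likeness to Col4a2, was 111 over the 8 tumours and 6443 over the 12. With quantile normalization r over the 12 tumours was 0.70 (permutation, adjusted p = 0.024), so the call for this pair depends on the scaling. Col4a2 read highest in KO hosts 2 and 3, at 7.79 and 7.62, and Col4a1 did not, at 7.60 and 7.50.

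Col6a1, Col6a2 and Col6a3 encode the chains of collagen VI, the beaded filament around cells, and Col6a1 and Col6a2 are neighbours on chromosome 10 with no other protein-coding gene between them. Col6a1 had levels of 8.53, 8.59 and 8.81 in p62 KO hosts, against 8.34, 8.61 and 8.67 in WT hosts (difference 0.06, SE 0.09). Col6a2 ran at 8.47, 8.75 and 8.94 in p62 KO hosts, against 8.53, 8.81 and 9.02 in WT hosts (difference -0.06, SE 0.11). Col6a3 ran at 10.09, 10.25 and 10.55 in p62 KO hosts, against 9.98, 10.16 and 10.44 in WT hosts (difference 0.13, SE 0.11). The groups overlapped in all 3 genes, and WT host 5 was the lowest tumour in Col6a1 and Col6a3.

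Col6a1 and Col6a2 went together across tumours. Pearson r was 0.75 and Spearman rho 0.83 (permutation p of 0.00435 and 0.00155, or 0.0113 and 0.0101 adjusted over 13 pairs, n = 12), with r of 0.82 among p62 KO hosts and 0.86 among WT hosts. It was 0.71 without the 2 tumours farthest from the median of Col6a1, and 0.65 over the 8 tumours with wider arrays (exact permutation p = 0.0769, adjusted p = 0.244). The rank of Col6a2 among 19936 genes in likeness to Col6a1 was 77 over the 12 tumours and 675 over the 8. The reverse ranks were 425 and 555. Without WT host 5 alone r was 0.68 and the adjusted permutation p 0.0612. Unlike the collagen IV pair these genes run the same way, and each has a promoter of its own, shown here from RefSeq (GRCm38.p6) as Col6a1 at chr10:76725995-76726294 and the window of Col6a2 at chr10:76623355-76623654, the downstream of its annotated starts, both on the minus strand. Capitals mark any CCAAT box, any TATAAA box and any GC box of the letters GGGCGG, on either strand.
Col6a1: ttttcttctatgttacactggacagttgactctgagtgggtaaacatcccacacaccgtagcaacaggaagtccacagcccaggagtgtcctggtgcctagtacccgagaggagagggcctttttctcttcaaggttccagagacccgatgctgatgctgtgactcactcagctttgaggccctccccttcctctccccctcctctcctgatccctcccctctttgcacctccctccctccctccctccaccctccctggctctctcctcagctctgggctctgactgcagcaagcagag
Col6a2: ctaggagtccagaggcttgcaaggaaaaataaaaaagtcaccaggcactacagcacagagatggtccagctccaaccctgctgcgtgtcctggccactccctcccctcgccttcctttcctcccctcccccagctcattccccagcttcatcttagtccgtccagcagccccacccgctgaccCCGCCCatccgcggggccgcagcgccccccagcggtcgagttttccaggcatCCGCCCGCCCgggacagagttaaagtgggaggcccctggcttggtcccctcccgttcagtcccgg
The Col6a1 window holds none of the 3 motifs, and the Col6a2 window holds 3 copies of GGGCGG on the opposite strand (read CCGCCC), the letters of a GC box, of which 2 overlap. Of the 44 chains, 35 matched the promoter table, with 38 windows. GGGCGG was in 60.5% of these windows and in 35.7% of all 32851 windows, CCAAT in 34.2% and 37.4%, and TATAAA in 13.2% and 13.6%. These are matches of letters and say nothing about factors.

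**Figure D3:**
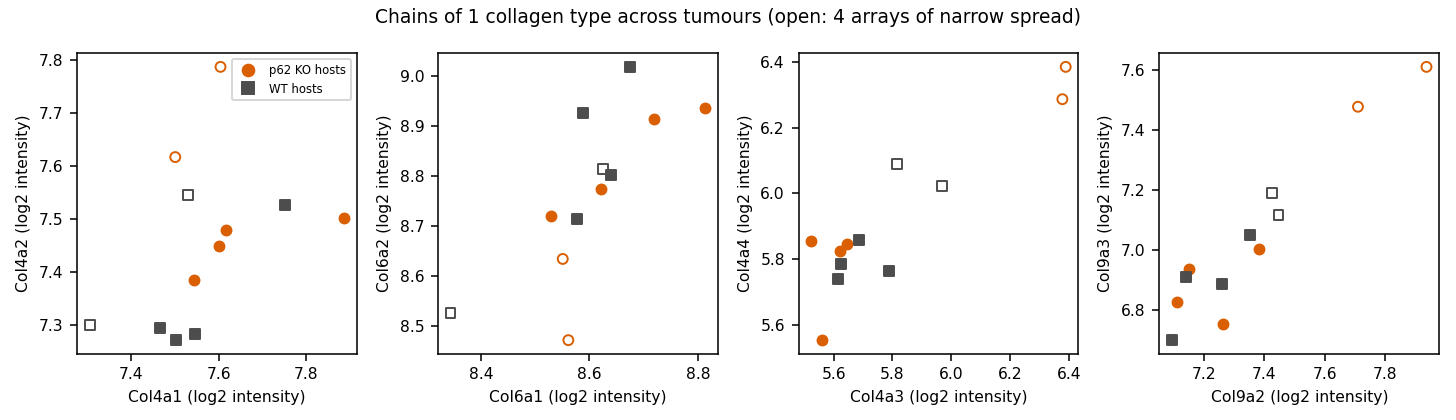
Log2 intensity of 4 pairs of chains of 1 collagen type, each symbol a tumour (circles p62 KO hosts, squares WT hosts, open symbols the 4 arrays of narrow spread). In Col4a3 with Col4a4 and Col9a2 with Col9a3 all 4 open symbols lie at the high end, while in Col4a1 with Col4a2 the open circles lie above the other symbols.

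Partner chains of a molecule were correlated across tumours in some collagens, and in some of these pairs many other genes were more alike. Of 13 pairs of chains of 1 collagen type, 6 had a correlation over the 12 tumours with an adjusted p under 0.05 (permutation test), and 3 of them were the pairs of collagen IX. The others were Col4a3 with Col4a4, Col6a1 with Col6a2, and Col6a1 with Col6a3, whose r of 0.71 became 0.34 without the 2 tumours farthest from the median of Col6a1. Without KO host 6 or without WT host 5 this pair had r of 0.58 and 0.62 (permutation, adjusted p of 0.117 and 0.0738). Col4a5 and Col4a6 had r of 0.63 and rho of 0.38 (permutation p of 0.0277 and 0.221, adjusted p of 0.0514 and 0.359, n = 12), and r of 0.81 without KO host 1 (adjusted permutation p of 0.00775) but 0.28 without the 2 tumours farthest from the median of Col4a5. Col1a1 and Col1a2 had a Pearson r of 0.16 and a Spearman rho of 0.18 (permutation p of 0.562 and 0.572, adjusted p of 0.608 and 0.619, n = 12), and with arrays divided by their interquartile range the r of this pair was 0.74 (permutation, adjusted p = 0.0146), so its call depends on the scaling. Col5a1 and Col5a2 had an r of -0.30 and a rho of -0.19 (permutation p of 0.35 and 0.556, adjusted p of 0.455 and 0.619, n = 12). Their r was -0.88 among p62 KO hosts and 0.86 among WT hosts. It was 0.19 without KO host 3, -0.64 without WT host 6 and 0.41 with quantile normalization. The value of this pair thus depends on single tumours and on the scaling. The count became 3 without KO hosts 2 and 3, and 0 over the 8 tumours with wider arrays, where the tests also had fewer tumours, and it was 8 with quantile normalization and 9 with arrays divided by their interquartile range. The 4 tumours with narrow arrays are too few for a correlation of their own.

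Col4a3 and Col4a4, at means of 5.80 and 5.92 (array medians 6.21 to 6.44), had an r that differed between sets of arrays. Their r was 0.91 and rho 0.76 over the 12 tumours (permutation p of 0.00027 and 0.00593, adjusted p of 0.00175 and 0.0193, n = 12), 0.67 without KO hosts 2 and 3, the tumours farthest from the median of Col4a3, and 0.19 over the 8 tumours with wider arrays (exact permutation p = 0.596). It was 0.78 both with quantile normalization and with arrays divided by their interquartile range (permutation, adjusted p of 0.0104 and 0.00824). Among 19936 genes Col4a4 ranked 1025 in likeness to Col4a3 over the 12 tumours and 7059 over the 8. The reverse ranks were 254 and 6536. The levels of a pair come from the same arrays and share their normalization. Col9a2 and Col9a3, with r of 0.95 and rho of 0.90 (permutation p of 3e-05 and 0.00024, adjusted p of 0.00039 and 0.00312, n = 12), had r of 0.81 without KO hosts 2 and 3 and of 0.64 over the 8 tumours (exact permutation p = 0.0939, adjusted p = 0.244). Over the 12 tumours Col9a3 ranked 176 in likeness to Col9a2, and the reverse rank was 93. Col9a2 and Col9a3 ranked 598 and 1160 in likeness to Col9a1, with reverse ranks of 3788 and 4339. Over the 8 tumours r of Col9a1 was 0.495 with Col9a2 and 0.39 with Col9a3 (exact permutation, adjusted p of 0.475 and 0.643).

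FACIT chains lie on the surface of fibrils. Col9a1, a chain of the collagen IX that coats cartilage fibrils, had the largest difference of all 44 genes, 0.32 (SE 0.17). Its levels were 6.36, 6.88 and 7.17 in p62 KO hosts, against 6.22, 6.44 and 6.94 in WT hosts. KO hosts 1, 2 and 3 lay above all WT tumours, KO hosts 4, 5 and 6 lay within the WT range, and WT host 5 was the highest of its group. Without KO hosts 2 and 3 the difference was 0.15 (limma, adjusted p = 0.7675). Its partners Col9a2 and Col9a3 differed by 0.14 and 0.13 (SE 0.14 and 0.15), and by -0.06 and -0.10 without KO hosts 2 and 3.

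Col12a1 and Col14a1 encode FACIT collagens of type I fibrils in soft tissue. Col12a1 ran at 9.38, 9.64 and 10.05 in p62 KO hosts, against 9.37, 9.78 and 10.06 in WT hosts, so that the groups reached nearly the same lowest and highest levels, with a difference of -0.05 (SE 0.13). Col14a1 ran at 7.30, 7.33 and 7.65 in p62 KO hosts, against 7.18, 7.48 and 7.63 in WT hosts (difference -0.02, SE 0.10). Over the 9 FACIT chains 7 differences were above 0, with a median of 0.12 that turned to -0.06 without KO hosts 2 and 3.

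Among the 18 other chains 12 differences were above 0, with a median of 0.06, or -0.07 without KO hosts 2 and 3. Col18a1 and Col15a1 encode the multiplexins of vessel and epithelial basement membranes, and endostatin is a fragment of the Col18a1 chain. Col18a1 ran at 6.34, 6.86 and 7.27 in p62 KO hosts, against 6.49, 6.71 and 6.88 in WT hosts (difference 0.14, SE 0.13, or 0.0015 without KO hosts 2 and 3). Its highest tumour was that of KO host 2. Col15a1 differed by -0.01 (SE 0.10).

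Col8a1, a short-chain collagen of vessel walls, had the widest range of these chains, 1.06 over the 12 tumours. It ran at 8.05, 8.24 and 8.61 in p62 KO hosts, against 7.69, 8.37 and 8.76 in WT hosts, a difference of -0.06 (SE 0.17). The lowest tumour was that of WT host 2 and the highest that of WT host 6, so the WT group spanned all KO tumours. Its partner Col8a2 differed by -0.0003 over all tumours and by -0.22 without KO hosts 2 and 3 (limma, adjusted p = 0.6381), the single chain with an unadjusted p under 0.05 in that setting.

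Col6a4, Col6a5 and Col6a6 encode alternative collagen VI chains and lie side by side on chromosome 9. Col6a4 differed by 0.16 (SE 0.11) and Col6a6 by 0.08 (SE 0.13). Col6a5 had levels of 6.23, 6.53 and 6.85 in p62 KO hosts, against 6.30, 6.51 and 7.27 in WT hosts, a difference of -0.07 (SE 0.16), or 0.06 without WT host 6, which stood above all others. Its probe set with the lower mean, not used above, ran at 5.73, 5.86 and 6.92 in p62 KO hosts, against 5.87, 6.34 and 8.17 in WT hosts, and differed by -0.45 (SE 0.36). WT host 6 was the highest tumour on both probe sets, while KO hosts 1 and 4 read 6.82 and 6.92 on the probe set with the lower mean and 6.55 and 6.51 on the brighter one, so that the probe sets disagree on the order of the other tumours. The 4 transmembrane chains, Col13a1, Col17a1, Col23a1 and Col25a1, differed by 0.06 to 0.09, and by -0.13 to -0.08 without KO hosts 2 and 3. Col7a1, the anchoring fibril chain, differed by 0.01 (-0.12 without them).

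Across tumours, the values of KO hosts 2 and 3 stood out in many chains. Whether this came from the tumours themselves or from their arrays was not tested. The highest of the 12 tumours was one of these in 28 of 44 chains (63.6%), against 46.8% of all tested probe sets, and KO host 3 alone was highest in 20. Among the 22 chains with lower mean levels KO host 2 or 3 was highest in 18 (81.8%, against 62.4% of all probe sets in the same range of levels), and among the 22 with higher mean levels in 10 (45.5%, against 20.4%). The higher range ran from 6.82 to 10.24. Apart from Col1a1 (9.06), its chains that were highest in KO host 2 or 3 had means of only 6.82 to 7.45. The 20.4% is thus not matched for level within that range. KO host 2 or 3 was the lowest tumour in 4 of 44 chains (9.09%), against 29.4% of all tested probe sets. The mean deviation of the dimmer chains from their gene means was 0.30 and 0.37 in KO hosts 2 and 3, between -0.14 and -0.02 in the other KO tumours, and between -0.20 and 0.14 in WT tumours. In the brighter chains the same tumours stood at 0.13 and 0.06, the other KO tumours at -0.10 to 0.06, and WT tumours at -0.13 to 0.03.

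**Figure D4:**
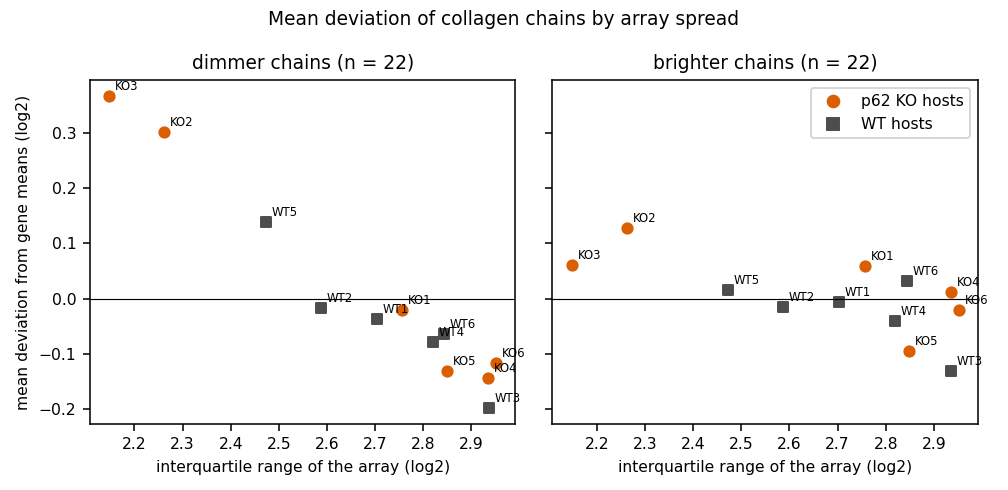
Mean deviation of the 22 dimmer (left) and 22 brighter (right) collagen chains from their gene means in each tumour on the log2 scale, against the interquartile range of its array (circles p62 KO hosts, squares WT hosts). KO hosts 2 and 3, with ranges of 2.26 and 2.15, lie highest among the dimmer chains.

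The KO tumours were also more unequal, with a larger SD than the WT tumours in 37 of 44 chains (84.1%, against 80.4% of all tested probe sets), and in 16 (36.4%, against 36.8%) without KO hosts 2 and 3. Some other marker lists were also highest in KO hosts 2 and 3, and some were not. The mean of 8 neutrophil markers was 5.59 to 6.53 in p62 KO hosts, against 5.46 to 5.96 in WT hosts, with KO hosts 2 and 3 highest at 6.53 and 6.47. Of these 8 markers 4 were higher at an unadjusted p under 0.05 (against 1.28% of all tested probe sets), 0 passed the adjusted threshold of limma, and 2 had means below the lower quartile of the arrays. Mmp8 stood furthest out, at 9.48 and 9.71 in KO hosts 2 and 3, against 6.29 to 7.83 in the other KO tumours. In WT tumours it lay at 6.63 to 8.72, highest in WT host 5, another narrow array. S100a8, Ly6g and Retnlg were also highest in KO host 2 or 3. S100a9, Cxcr2 and Csf3r were highest in KO host 1 and Trem1 in KO host 6, and Csf3r was lowest in KO host 3. The mean of 10 fibroblast markers was 7.88 to 8.41 in p62 KO hosts, against 8.12 to 8.29 in WT hosts, with KO host 3 lowest and KO host 1 highest. Marker means of epithelium (6.15 and 6.34), skeletal muscle (5.85 and 6.02), adipocytes (6.62 and 6.56) and prostate gland secretion (4.19 and 4.45) were also highest in KO hosts 2 and 3. The 7 genes of prostate gland secretion were all below the lower quartile, as were 1 of 10 epithelial, 2 of 8 skeletal muscle and 2 of 7 adipocyte markers. Means of endothelium (7.35 and 6.90), macrophages (9.23 and 8.89), smooth muscle (7.26 and 7.25), cartilage (5.63 and 5.78) and Schwann cells (5.73 and 5.90) were not highest there. Endothelium was lowest in KO host 3. In Col3a1, as in the fibroblast markers, KO host 3 was the lowest tumour and KO host 1 the highest. The part of these markers in the collagen levels was not tested.

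**Figure D5:**
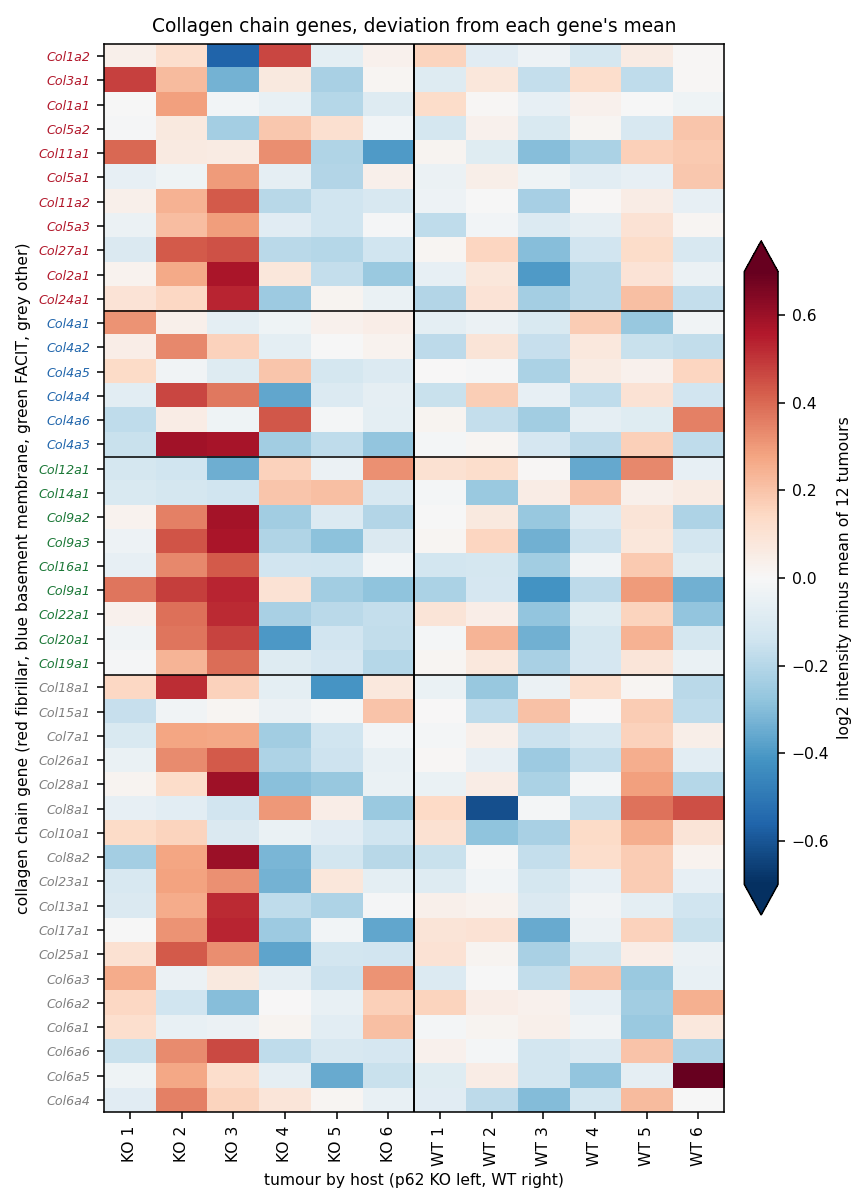
Deviation of each of the 44 collagen chain genes (rows, by structural group) from its own mean over 12 tumours on the log2 scale (colours, cut off at 0.7), with p62 KO hosts left of WT hosts. Columns KO 2 and KO 3 are red in most rows, while Col1a2 and Col3a1 are blue in KO 3.

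Of the genes that make, trim and bind collagen 0 passed the adjusted threshold, as with the chains. Of 17 genes for chain modification and folding, 1 was higher and 1 lower at an unadjusted p under 0.05 in limma. Over all tested probe sets 1.28% were higher and 1.11% lower. Each share of the list was larger than that, but rests on 1 gene. P4ha2, a catalytic subunit of the prolyl 4-hydroxylase of collagen, ran at 7.89, 8.47 and 9.09 in p62 KO hosts, against 7.47, 7.82 and 8.56 in WT hosts (difference 0.51, SE 0.23, limma adjusted p = 0.9935). The groups overlapped, and KO hosts 2 and 3 were the lowest of the KO tumours. P4ha3, another such subunit, ran at 8.97, 9.76 and 10.13 in p62 KO hosts, against 9.91, 10.00 and 10.17 in WT hosts (difference -0.39, SE 0.17, limma adjusted p = 0.9935), with KO host 3 lowest.

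Of 14 genes for secretion, cleavage and cross-linking, 0 had an unadjusted p under 0.05. The lysyl oxidase relatives Loxl1 and Loxl3 differed by 0.31 (SE 0.15) and -0.30 (SE 0.15). KO host 2 was the highest tumour in Loxl1 (8.48) and the lowest in Loxl3 (7.39). Among 13 fibril-associated proteins and 9 collagen receptors there were 0 as well. Of 14 basement membrane partners of collagen IV, 1 was higher and 1 lower. The laminin chain Lama2 ran at 6.44, 7.09 and 7.86 in p62 KO hosts, against 7.08, 7.65 and 8.58 in WT hosts (difference -0.62, SE 0.28), and the laminin chain Lamb2 at 7.24, 7.35 and 7.53 in p62 KO hosts, against 7.04, 7.15 and 7.33 in WT hosts (difference 0.20, SE 0.09). Neither passed (limma, adjusted p = 0.9935 each), and their shares are to be read against the 1.28% and 1.11% of all tested probe sets.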

How the data were processed

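RNA of 12 tumours was hybridised to 1 biotin-labelled array each. The authors deposited log2 intensities per probe set, made with RMA (background correction, normalization and summary of probes), which the submitters' processing notes name without a version; log2 was checked from the range of the values. Probe sets were named through the platform annotation. The table had 34760 rows without gaps; 6568 rows of low identifiers without a gene were left out as controls, and 28192 were tested. limma 3.58.1 in R 4.3.3 (lmFit, eBayes, two-sided, no covariate) compared p62 KO with WT hosts, with Benjamini-Hochberg adjustment over all tested probe sets. Chain pairs were compared by permutation (100000 resamples; all 40320 orders for 8 tumours) in Python 3.11.15 with numpy 2.4.6, adjusted with scipy 1.17.1. Figures used matplotlib 3.10.9. Fits were tested on simulated data. The labels name separate mice, and no batch. Arrays give no counting depth; their number limits the precision.

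The collagen members, the structural groups and the other gene lists were chosen with earlier results of these data known. Values are described for 14 preset anchor chains, the chains of the 13 pairs, and in each group the largest positive and negative difference and the widest range; of other lists, those with the smallest unadjusted p. Cnmd, Hapln1, Col6a6, Col7a1, the transmembrane chains and the marker genes named singly were chosen after their values were seen. Alternatives were array scaling, a filter on dim probe sets, the mean of a gene's probe sets, array weights, a block for the mouse number, a robust eBayes with trend and each tumour left out; omission of narrow arrays, their interquartile range as a covariate or divisor were chosen after the data had been seen. All 44 chains passed the filter on dim probe sets. Promoter sequences and gene neighbours are from RefSeq (GRCm38.p6).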

Additional observations from a re-analysis of the deposited data

Results flagged for a closer look

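In 4 of 92 groups of 6 tumours 1 tumour lay far from the other 5, where chance gives about 1 in 20. The 92 groups are the 46 collagen probe sets in each host genotype. Col4a1 was high in KO host 1, at 7.89 against 7.62 in the next KO tumour. Col6a5 was high in WT host 6, at 7.27 against 6.63 in the next WT tumour. Col6a1 was low in WT host 5, at 8.34 against 8.58 in the next WT tumour. Col23a1 was high in WT host 5, at 6.695 against 6.499 in the next WT tumour.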

How the results depend on the processing

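Under all alternatives run, 0 of the 44 chains passed an adjusted p under 0.05. At an unadjusted p under 0.05 the count of higher chains was 0 to 2 over the 12 fits that left out 1 tumour (Col9a1 without KO host 5 or 6, Col9a1 and Col6a4 without WT host 5) and 1 with the interquartile range as covariate (Col9a1), and the count of lower chains was 1 without KO hosts 2 and 3 (Col8a2). Among all tested probe sets 3.32% were higher with the covariate, and 4.23% were lower without KO hosts 2 and 3. Such shares were not computed for the fits that left out 1 tumour. The median difference of the FACIT chains moved to -0.060 and that of the other chains to -0.073 without KO hosts 2 and 3; the remaining medians moved by less than the SD between tumours, which exceeds the median itself over all chains. With array weights the medians of all chains (-0.026), FACIT (-0.029) and other chains (-0.048) were below 0, as was that of all chains without KO hosts 2 and 3 (-0.036), and without these and WT hosts 2 and 5 those of all (-0.011), FACIT (-0.0024) and other chains (-0.033). The number of correlated chain pairs, 6 of 13, was 8 with quantile normalization, 9 with arrays divided by the interquartile range, 7 with a common median and with deviations from host group means, 4 to 7 with each tumour left out, 3 without KO hosts 2 and 3 and 0 without these and WT hosts 2 and 5; for the last 2 the number of tumours was also smaller, and the cause was not tested.

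For 28 named chains 616 differences were computed under alternatives, and 72 of them, in 19 chains, turned direction. None of these had passed in either direction, and the cause was not tested. The turned values were as follows. With a common median per array Col1a2 was -0.028. With quantile normalization Col12a1 was 0.015, Col1a1 0.041, Col5a1 0.030, Col6a2 0.0078 and Col8a1 0.0032. With array weights Col11a2 was -0.049, Col12a1 0.082, Col14a1 0.021, Col15a1 0.0059, Col18a1 -0.016, Col4a3 -0.098, Col4a4 -0.036, Col4a5 0.00062, Col9a2 -0.029 and Col9a3 -0.067. Without KO hosts 2 and 3 Col11a2 was -0.060, Col12a1 0.053, Col14a1 0.035, Col4a3 -0.16, Col4a4 -0.11, Col4a5 0.024, Col6a2 0.036, Col9a2 -0.060 and Col9a3 -0.096. Without these and WT hosts 2 and 5 Col11a2 was -0.026, Col12a1 0.15, Col18a1 -0.027, Col4a3 -0.090, Col4a4 -0.017, Col4a5 0.029 and Col9a3 -0.0076. With the interquartile range as covariate Col4a5 was 0.00077. With each tumour left out, the ranges that crossed 0 were -0.13 to 0.0093 for Col12a1, -0.078 to 0.013 for Col14a1, -0.050 to 0.030 for Col15a1, -0.086 to 0.011 for Col1a1, -0.086 to 0.12 for Col1a2, -0.013 to 0.15 for Col3a1, -0.0034 to 0.17 for Col4a3, -0.0034 to 0.16 for Col4a4, -0.047 to 0.027 for Col4a5, -0.018 to 0.14 for Col4a6, -0.069 to 0.032 for Col5a1, -0.13 to 0.064 for Col6a5, -0.19 to 0.027 for Col8a1 and -0.12 to 0.063 for Col8a2.

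The labels number the mice 1 to 6 in both genotypes without saying that the numbers pair them. Deviations of tumours of the same number had no common direction, with correlations over probe sets of 0.14, 0.37, -0.55, 0.37, -0.54 and 0.34 for numbers 1 to 6. WT hosts 1 and 4 were most alike to the KO host of their own number, while each KO host was more alike to a WT host of another number. With the mouse number as a replicate block 0 chains passed, and the difference of Col9a1 stayed at 0.32 (limma, adjusted p = 0.9992). Arrays set no counting limit, but the intervals rest on 6 tumours per group. A difference smaller than the distance from the centre to an end of its interval has an interval that crosses 0. Such a difference cannot be told from 0 at the unadjusted threshold, and the adjusted threshold asks for more.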

Other observations

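Of 7 cartilage markers, Cnmd and Hapln1 were high in a few tumours. Cnmd, which encodes chondromodulin, stood at 9.31 and 8.69 in KO hosts 1 and 4, and lay between 5.48 and 5.97 in the other KO tumours and between 5.37 and 6.10 in WT tumours. Hapln1, which links aggrecan to hyaluronan, stood at 8.45 and 7.60 in the same KO tumours and between 4.39 and 5.41 in the other KO tumours, and in WT tumours it reached 7.43 in WT host 1 and 6.44 in WT host 4. KO hosts 1 and 4 were also the highest tumours in Col11a1, at 8.49 and 8.41. Of the other markers, Sox9 (7.29 and 7.25) and Matn3 (5.54 and 5.79) were not high in these tumours, Sox5 was highest in WT host 4 (6.93), and Matn1 lay at 4.00 to 4.50 throughout. Col2a1 stood at 6.75 and 6.80 in KO hosts 1 and 4, below KO hosts 2 and 3. Acan, which encodes aggrecan itself, did not follow them, at 4.95 and 5.00 in KO hosts 1 and 4 and between 4.92 and 5.43 over all tumours. The groups overlapped in Cnmd and Hapln1, and neither passed (limma, adjusted p = 0.9935 each).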
